A study of Saccharomyces cerevisiae with 6 samples.

Results

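The genes described here encode the molecular chaperones and folding enzymes of budding yeast, Saccharomyces cerevisiae, listed by name in 7 roles: Hsp90 and its cofactors, cytosolic Hsp70 and its partners, ribosome-associated chaperones, the cytosolic chaperonin, prefoldin, the mitochondrial chaperones and the chaperones and oxidases of the endoplasmic reticulum (ER). Of 50 listed genes, 48 had a probe set of their own on the array and 47 were bright enough to be tested, out of 5656 genes with a probe set of their own and 4242 tested. The genes were listed by name, with earlier results of these data known. SSB1 and SSB2 share a single probe set and could not be measured apart, and SSA3 was too dim.

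Total RNA was measured on 6 single-colour Affymetrix arrays, 2 for each of 3 strains grown at 30 °C: WT, a strain with FHL1 deleted (FHL1 deletion) and a strain with FHL1 and IFH1 deleted (double deletion). The labels number the arrays of each strain as first and second experiment, and array values below are given in that order. They do not say whether these were separate cultures, so p-values measure the spread between these arrays, which may be technical. Both mutant strains carry the FHL1 deletion, and the sources used here give no strain background, growth medium, growth phase or mating type.

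Fhl1 is a forkhead-type transcription factor that binds the promoters of ribosomal protein genes, and Ifh1 is the coactivator that it brings there. Chaperones bind unfolded chains, and many use cycles of ATP hydrolysis to fold them, to pass them to a partner or to move them across a membrane. In yeast the heat shock factor Hsf1 and the stress factors Msn2 and Msn4 drive many cytosolic and mitochondrial chaperone genes, while the sensor Ire1 and the transcription factor Hac1 drive chaperone genes of the ER when unfolded proteins build up there. New ribosomal proteins are among the chains that this system handles.

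Several properties of the arrays touch the results. On the scaled log2 scale IFH1 stood at 8.38 and 8.63 (WT) and 8.91 and 8.92 (FHL1 deletion). In the double deletion it was at the floor value, 5.63, and FHL1 was at the floor on all 6 arrays. Before scaling and floor, the deposited FHL1 values were 4.905 and 5.018 (WT), 3.181 and 2.666 (FHL1 deletion) and 2.662 and 2.894 (double deletion). There all mutant arrays lay under both WT arrays, at low signal. Exactly equal values in 502 to 859 probe sets tied together the arrays WT experiment 1, FHL1 deletion experiment 2 and double deletion experiment 1 (set A), and the other 3 arrays form set B. All 5 MATa markers were high and all 4 MATalpha markers were lower on FHL1 deletion experiment 1 and double deletion experiment 2, and the reverse held on the other 4 arrays, so each mutant has 1 array with MATa and 1 with MATalpha markers, while both WT arrays carry MATalpha markers. The mutant arrays with MATa markers are both in set B, and those with MATalpha markers are both in set A. Differences within set B therefore also compare MATa with MATalpha markers. Among the mutant arrays, set and mating type cannot be told apart. The 9 bacterial hybridization controls lay 0.66 (FHL1 deletion) and 0.62 (double deletion) below WT on average on the scaled log2 scale before the floor, and the ribosomal RNA probe sets had a median of 9.90 on WT experiment 2 against 5.32 to 6.76 on the others. Degraded RNA loses signal at the 5' end, and for ACT1 the excess of the 3' over the 5' probe set was 0.96 and 0.93 (WT), 1.15 and 1.08 (FHL1 deletion) and 1.07 and 1.02 (double deletion) in log2 units. The same excess was larger and more uneven for SRB4, at 2.25 and 1.52 (WT), 2.39 and 3.09 (FHL1 deletion) and 2.70 and 1.89 (double deletion), and for SPT15 it ran from 0.98 to 1.23 over the arrays. The part of these differences in the results below was not tested. Array number limits the precision throughout, with 3 residual degrees of freedom.

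In the FHL1 deletion, 10 of the 47 tested chaperone genes fell and 2 rose (limma, Benjamini-Hochberg adjusted p under 0.05 over all 4242 genes), and 35 did not pass. Across all tested genes 8.42% were called lower and 12.9% higher. The genes that fell were 6 of the ER (KAR2, LHS1, SIL1, JEM1, SCJ1 and PDI1), the cytosolic chaperones HSP82, SSA1 and SSA2, and the mitochondrial chaperonin gene HSP60. The genes that rose, GIM5 and YKE2, both encode subunits of prefoldin. The median difference over the tested chaperone genes was -0.17 on the log2 scale, against 0.02 over all tested genes. In 23 of the 47 both mutant arrays lay under both WT arrays and in 7 they lay above, where all genes gave 29.5% and 34.1%.

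In the double deletion, 8 fell and 1 rose of the same 47 genes, with 8.46% of all genes called lower and 9.78% called higher. HSP82, SSA1, SSA2, HSP60, KAR2, LHS1, SIL1 and the mitochondrial exchange factor gene MGE1 fell, and GIM5 rose. The median difference was -0.18 against 0.005 over all genes, and 25 genes lay under and 5 above both WT arrays, where all genes gave 29.4% and 31.5%. Both comparisons use the same 2 WT arrays, so their values are set side by side and are not independent. Leaving out an array of the groups compared, which leaves 1 in its group, cut the calls over all genes in both comparisons. Leaving out WT experiment 1 left 2 lower calls among the chaperone genes in each comparison, and leaving out WT experiment 2 left 2 and 1. Without FHL1 deletion experiment 1 that strain had 5 lower calls and 1 higher, and without its experiment 2 it had 8 and 0. In the double deletion 5 lower calls were left without experiment 1 and 3 without experiment 2, with no higher call in either case. The MATalpha arrays alone leave 1 array of each mutant, and there the medians over all genes were 0.023 and 0.009. With the array set as a block the counts were 15 lower and 5 higher in the FHL1 deletion against 16 and 4 in the double deletion. Over all 4242 genes the array set as a block gave 760 lower and 1007 higher calls in the FHL1 deletion. In the double deletion it gave 762 and 815. On the deposited scaling the median over all genes in the FHL1 deletion moved from 0.02 to 0.13 and the share of calls that were higher from 60.5% to 74.2%, with 7 chaperone genes lower and 4 higher. For the double deletion that share moved from 53.6% to 65.9%.

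**Figure D1:**
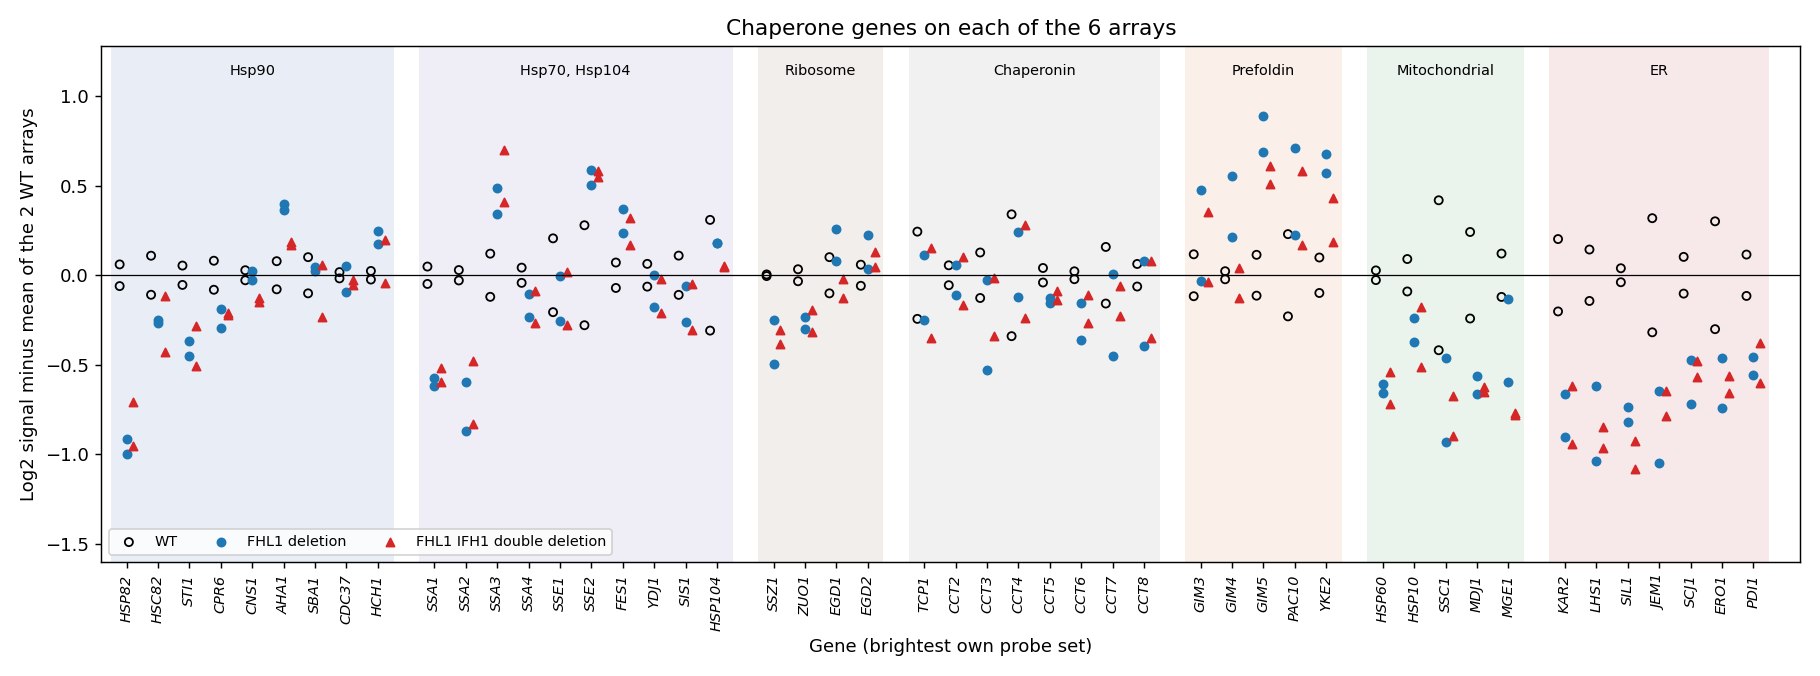
Scaled log2 level of each chaperone gene on each of the 6 arrays, minus the mean of the gene's 2 WT arrays, with genes along the x axis by role, open circles for WT, blue circles for the FHL1 deletion and red triangles for the double deletion. The mutant points of the ER and mitochondrial genes lie under both WT points, those of GIM5 and YKE2 lie above them, and those of most chaperonin genes overlap with WT.

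All 7 listed ER genes had both mutant arrays of each strain under both WT arrays, 6 passed in the FHL1 deletion against 3 in the double deletion, and the median differences were -0.78 and -0.72. Over all genes 29.5% and 29.4% lay under both WT arrays, and 8.42% and 8.46% were called lower. The 8 ER genes among the other folding genes had medians of -0.19 and -0.30, with 1 called lower (MPD1) and 1 higher (MPD2) in the FHL1 deletion and 1 lower (MPD1) in the double deletion. KAR2 encodes BiP, the Hsp70 of the ER lumen, which binds chains as they enter. Its level was 13.13 and 12.73 (WT), 12.02 and 12.26 (FHL1 deletion) and 12.31 and 11.99 (double deletion). It fell by 0.79 in the FHL1 deletion (SE 0.18, adjusted p 0.024) and by 0.78 in the double deletion (SE 0.18, adjusted p 0.029), to 58.0% and 58.3% of the WT level.

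The genes of both nucleotide exchange factors that reset BiP fell too. SIL1, an exchange factor of the BiP cycle, had 8.54 and 8.62 (WT), 7.76 and 7.84 (FHL1 deletion) and 7.50 and 7.65 (double deletion). It fell by 0.78 (SE 0.14, adjusted p 0.012) and by 1.003 (SE 0.14, adjusted p 0.0064), and in the double deletion it ranked 101 among all 4242 genes by size of fall. LHS1, an Hsp110-like chaperone with exchange activity towards Kar2, had 8.96 and 8.67 (WT), 7.78 and 8.20 (FHL1 deletion) and 7.97 and 7.85 (double deletion). All 4 of its mutant arrays lay under both WT arrays. LHS1 fell by 0.83 (SE 0.19, adjusted p 0.024) and by 0.90 (SE 0.19, adjusted p 0.022).

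JEM1 and SCJ1 encode J-domain proteins of the ER lumen, which stimulate the ATPase of Kar2. JEM1 had 8.51 and 7.88 (WT), 7.15 and 7.55 (FHL1 deletion) and 7.55 and 7.41 (double deletion), with a gap of 0.64 between its WT arrays. It fell by 0.85 in the FHL1 deletion (SE 0.24, adjusted p 0.0471), and its double deletion value of -0.72 did not pass (SE 0.24, adjusted p 0.084). SCJ1 had 9.73 and 9.94 (WT), 9.11 and 9.36 (FHL1 deletion) and 9.36 and 9.27 (double deletion). It fell by 0.60 in the FHL1 deletion (SE 0.16, adjusted p 0.036), while the double deletion difference of -0.52 did not pass (SE 0.16, adjusted p 0.058). For both genes the mutant arrays of both strains lay under both WT arrays.

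PDI1 and ERO1 form the oxidative branch, in which protein disulfide isomerase makes and shuffles disulfide bonds and the oxidase Ero1 recharges it. PDI1 had 12.31 and 12.08 (WT), 11.63 and 11.74 (FHL1 deletion) and 11.82 and 11.59 (double deletion). It fell by 0.51 in the FHL1 deletion (SE 0.14, adjusted p 0.042), and the double deletion difference of -0.49 just missed the threshold (SE 0.14, adjusted p 0.0506). ERO1 had 8.68 and 8.08 (WT), 7.64 and 7.92 (FHL1 deletion) and 7.72 and 7.82 (double deletion), and its 2 WT arrays differed by 0.60, as much as either mutant mean differed from WT. Neither ERO1 difference passed, at -0.60 (SE 0.22, adjusted p 0.094) and -0.61 (SE 0.22, adjusted p 0.10).

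Leaving out an array of the groups compared left 1 array in a group, and it cut the calls over all genes as well as the ER calls. Within set A the median over the 7 genes was -0.76 in the FHL1 deletion and within set B it was -0.73, while the double deletion gave -0.96 and -0.67. Without WT experiment 1 the median was -0.58 with 0 of 7 called in the FHL1 deletion, and without WT experiment 2 it was -0.90 with 1 called. Without FHL1 deletion experiment 1 it was -0.62 with 1 called, which equals the MATalpha arrays' median, where 2 were called. Without FHL1 deletion experiment 2 it was -0.82 with 4 called. In the double deletion the calls went from 3 to 1, 0, 2 and 1 without WT experiments 1 and 2 and double deletion experiments 1 and 2, with medians from -0.96 to -0.58. With the array set as a block all 7 were called in both strains.

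**Figure D2:**
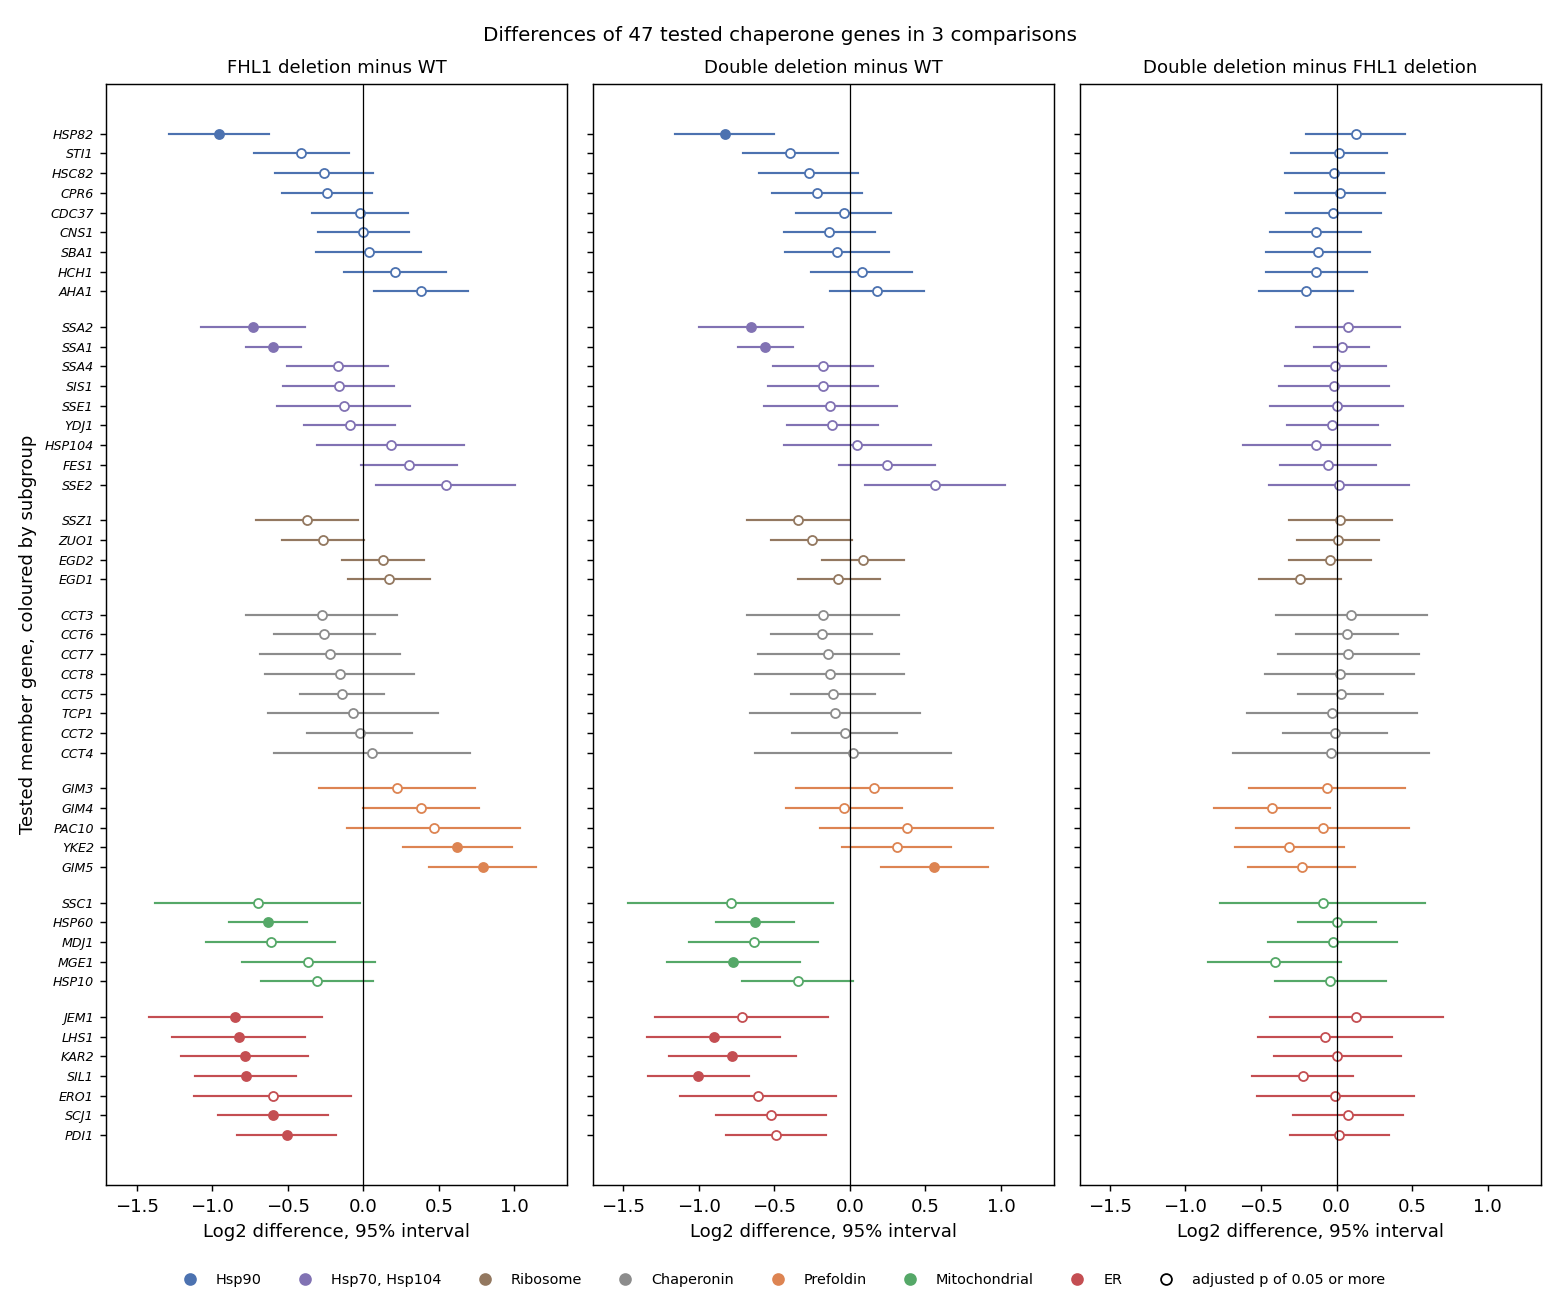
Log2 difference of each tested chaperone gene with its 95% interval in the 3 comparisons, coloured by role, with filled points for an adjusted p under 0.05. The ER and mitochondrial points lie left of 0 in both comparisons with WT, prefoldin lies to the right of it in the FHL1 deletion, and no point is filled in the comparison of the mutants.

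The 5 mitochondrial chaperone genes were also all lower on every mutant array than on both WT arrays, with median differences of -0.61 in the FHL1 deletion against -0.64 in the double deletion, but 1 passed in the former and 2 in the latter. Over all genes 29.5% and 29.4% lay under both WT arrays, and 8.42% and 8.46% were called lower. HSP60 encodes the large subunit of the matrix chaperonin, and its level was 12.89 and 12.83 (WT), 12.25 and 12.20 (FHL1 deletion) and 12.32 and 12.14 (double deletion). It fell by 0.63 in both strains (SE 0.11 in each, adjusted p 0.010 and 0.013). HSP10, the lid of the same chaperonin, had 11.48 and 11.66 (WT), 11.33 and 11.20 (FHL1 deletion) and 11.06 and 11.39 (double deletion), and its differences of -0.31 and -0.35 did not pass (SE 0.16 in each, adjusted p 0.20 and 0.17).

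SSC1, MDJ1 and MGE1 encode the matrix Hsp70, its J-domain partner and its nucleotide exchange factor, which also pull proteins in from the cytosol. MGE1 had 8.79 and 8.54 (WT), 8.07 and 8.53 (FHL1 deletion) and 7.89 and 7.90 (double deletion). It fell by 0.77 in the double deletion (SE 0.19, adjusted p 0.035), and its FHL1 deletion difference of -0.36 did not pass (SE 0.19, adjusted p 0.21). In the FHL1 deletion the second array, at 8.53, lay next to the lower WT array. SSC1 had 10.63 and 9.79 (WT), 9.28 and 9.75 (FHL1 deletion) and 9.54 and 9.31 (double deletion), with its WT arrays 0.84 apart, and differed by -0.70 and -0.79 without passing (SE 0.29 in each, adjusted p 0.13 and 0.10). MDJ1 had 9.18 and 8.70 (WT), 8.28 and 8.38 (FHL1 deletion) and 8.32 and 8.29 (double deletion) and came close to the threshold in both strains, with -0.61 (SE 0.18, adjusted p 0.0517) and -0.64 (SE 0.18, adjusted p 0.0504).

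Leaving out a WT array, which leaves 1 in that group, cut the calls over all genes, and all mitochondrial calls were lost. Without WT experiment 1 the median went from -0.61 to -0.37 in the FHL1 deletion and from -0.64 to -0.44 in the double deletion, and without WT experiment 2 it was -0.66 and -0.88. SSC1 moved most, to -0.28 and -0.37 without the former array and to -1.12 and -1.21 without the latter. The HSP60 differences ran from -0.66 to -0.60, with adjusted p from 0.057 to 0.074. Within set A the mitochondrial medians were -0.69 and -0.86, and within set B -0.47 and -0.48. Without double deletion experiment 1 there was 1 call in that strain and without experiment 2 there were 0. With the array set as a block 3 of 5 were called in the FHL1 deletion and 5 of 5 in the double deletion. That setting called 760 and 762 of all 4242 genes lower.

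Among Hsp90 and its cofactors, HSP82 was the single gene called. HSP82 encodes the heat-inducible copy of Hsp90 and HSC82 the constitutive copy. HSP82 had 11.65 and 11.77 (WT), 10.80 and 10.71 (FHL1 deletion) and 10.76 and 11.002 (double deletion), and the mutant arrays lay well under both WT arrays. It fell by 0.96 in the FHL1 deletion (SE 0.14, adjusted p 0.0057), to 51.6% of the WT level, and by 0.83 in the double deletion (SE 0.14, adjusted p 0.012). HSC82 had 12.86 and 12.64 (WT), 12.50 and 12.48 (FHL1 deletion) and 12.32 and 12.64 (double deletion). Its differences of -0.26 and -0.27 did not pass (SE 0.14 in each, adjusted p 0.22 and 0.22).

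The probe set that both Hsp90 genes share had 12.60 and 12.58 (WT), 12.02 and 12.14 (FHL1 deletion) and 12.12 and 12.12 (double deletion), and was not tested. These Hsp90 copies are nearly identical in sequence, and the HSP82 probe set carries the suffix used where too few unique probes were found, so part of its signal may come from HSC82 RNA. The HSP82 call in the FHL1 deletion was lost without WT experiment 2, with an adjusted p of 0.05001, and in the double deletion without WT experiment 1, WT experiment 2 or double deletion experiment 1, with adjusted p of 0.053, 0.076 and 0.051.

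None of the 8 other tested genes of the Hsp90 machine passed in either strain. STI1, which links Hsp70 to Hsp90, had 11.61 and 11.51 (WT), 11.11 and 11.19 (FHL1 deletion) and 11.28 and 11.06 (double deletion), a difference of -0.41 (SE 0.13, adjusted p 0.069) and of -0.39 (SE 0.13, adjusted p 0.085). AHA1, an activator of the Hsp90 ATPase, lay the other way, with 10.38 and 10.22 (WT), 10.69 and 10.66 (FHL1 deletion) and 10.48 and 10.47 (double deletion) and differences of 0.38 (SE 0.13, adjusted p 0.080) and 0.18 (SE 0.13, adjusted p 0.40). On the deposited scaling AHA1 was called higher in the FHL1 deletion. The remaining cofactors, namely the cyclophilin CPR6, CNS1, the p23 homologue SBA1, the kinase cofactor CDC37 and the Aha1 relative HCH1, had differences from -0.24 to 0.21 in the FHL1 deletion and from -0.22 to 0.08 in the double deletion.

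In the cytosolic Hsp70 group the abundant constitutive pair SSA1 and SSA2 fell and the rest did not pass. SSA1 had 14.54 and 14.44 (WT), 13.92 and 13.88 (FHL1 deletion) and 13.97 and 13.90 (double deletion), with little spread between arrays of a strain. It fell by 0.60 (SE 0.08, adjusted p 0.0047) and by 0.56 (SE 0.08, adjusted p 0.0062), to 66.2% and 67.8% of WT. SSA1 was called in the FHL1 deletion under each of the 20 alternatives in which it was tested, and in the double deletion under 19, the exception being quantile normalization (difference -0.26, adjusted p 0.063). With plain-suffix probe sets only, SSA1 was not tested, because its own probe set carries another suffix. SSA2 had 13.45 and 13.51 (WT), 12.61 and 12.89 (FHL1 deletion) and 13.005 and 12.65 (double deletion). It fell by 0.73 (SE 0.15, adjusted p 0.016) and by 0.65 (SE 0.15, adjusted p 0.027), and neither call held without either WT array, with adjusted p from 0.071 to 0.13. The double deletion call was also lost without double deletion experiment 2, at 0.096.

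A pair of probe sets that SSA1 and SSA2 share were lower on all mutant arrays too, by means of 0.51 and 0.48 in the FHL1 deletion against 0.48 and 0.46 in the double deletion, and were not tested. SSA1 and SSA2 are near-identical copies, so their signals may be mixed. Of the stress-induced copies, SSA4 had 8.34 and 8.42 (WT), 8.15 and 8.28 (FHL1 deletion) and 8.29 and 8.12 (double deletion), with all mutant arrays under both WT arrays, and its differences of -0.17 (SE 0.14, adjusted p 0.43) and -0.18 (SE 0.14, adjusted p 0.43) did not pass. SSA3 had 6.84 and 6.59 (WT), 7.05 and 7.20 (FHL1 deletion) and 7.42 and 7.12 (double deletion) and was not tested; its mutant arrays lay above both WT arrays.

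Partners of cytosolic Hsp70 did not pass in either strain. SSE2, the stress-responsive Hsp110 exchange factor, had 9.29 and 8.74 (WT), 9.52 and 9.60 (FHL1 deletion) and 9.56 and 9.60 (double deletion), and its differences of 0.55 (SE 0.20, adjusted p 0.088) and 0.56 (SE 0.20, adjusted p 0.090) were about the size of the gap of 0.56 between its WT arrays. It was called higher in the FHL1 deletion on the deposited scaling and without WT experiment 1, and in both strains with the array set as a block. Its constitutive relative SSE1 differed by -0.13 and -0.13, and the exchange factor FES1 by 0.30 and 0.24. The J-domain proteins YDJ1 and SIS1 differed by -0.09 and -0.16 in the FHL1 deletion. HSP104, the disaggregase that pulls proteins out of aggregates with Hsp70, had 9.85 and 9.23 (WT), 9.72 and 9.72 (FHL1 deletion) and 9.59 and 9.58 (double deletion). Its mutant arrays lay between its WT arrays.

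The ribosome-associated genes gave 0 calls of 4 tested in either strain. Of them 1 had an unadjusted p under 0.05 in each strain, against 1556 and 1416 of all 4242 genes. That gene was SSZ1, the Hsp70-like subunit of the ribosome-associated complex, with 10.47 and 10.46 (WT), 10.22 and 9.98 (FHL1 deletion) and 10.08 and 10.16 (double deletion) and differences of -0.37 (SE 0.14, adjusted p 0.11) and -0.35 (SE 0.14, adjusted p 0.14). Its partner ZUO1, the J-domain subunit, had 11.95 and 12.02 (WT), 11.69 and 11.75 (FHL1 deletion) and 11.79 and 11.67 (double deletion) and differences of -0.27 and -0.25. Mutant arrays lay under both WT arrays for both subunits. The subunits of the nascent chain-associated complex lay on the other side in the FHL1 deletion, with 0.17 for EGD1 and 0.13 for EGD2, and overlapped WT. The probe set that SSB1 and SSB2 share, which covers the Hsp70 pair that binds chains on the ribosome, had 13.21 and 12.99 (WT), 12.70 and 13.04 (FHL1 deletion) and 12.99 on both double deletion arrays, which overlap.

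The 8 subunits of the cytosolic chaperonin, the double ring that folds actin and tubulin, gave 0 calls in either strain. None had an unadjusted p under 0.05, against 1556 (FHL1 deletion) and 1416 (double deletion) of all 4242 genes. Their differences ran from -0.28 (CCT3) to 0.06 (CCT4) in the FHL1 deletion, and from -0.19 (CCT6) to 0.02 (CCT4) in the double deletion. In the FHL1 deletion TCP1, CCT2, CCT5, CCT7 and CCT8 differed by -0.07, -0.02, -0.14, -0.22 and -0.16. The subunit with the smallest p was CCT6, with 10.64 and 10.69 (WT), 10.30 and 10.51 (FHL1 deletion) and 10.55 and 10.40 (double deletion), differences of -0.26 (SE 0.14, adjusted p 0.24) and -0.19 (SE 0.14, adjusted p 0.40). Intervals of 95% over the 8 subunits in the FHL1 deletion reached from -0.78 to 0.71, so these arrays do not show that the chaperonin genes stayed the same. CCT4 and TCP1 had WT arrays 0.68 and 0.49 apart, more than any difference in the group.

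Prefoldin hands new actin and tubulin to the chaperonin, and 5 of its subunit genes are on the list. All 5 differences were above 0 in the FHL1 deletion, with a median of 0.47, and 2 passed. In the double deletion 4 were above 0 and GIM4 was not, with a median of 0.31, and 1 passed. Over all genes 12.9% (FHL1 deletion) and 9.78% (double deletion) were called higher. GIM3 and PAC10 overlapped WT in both strains. GIM5 had 10.05 and 10.28 (WT), 10.85 and 11.05 (FHL1 deletion) and 10.67 and 10.78 (double deletion). It rose by 0.79 in the FHL1 deletion (SE 0.15, adjusted p 0.014) and by 0.56 in the double deletion (SE 0.15, adjusted p 0.043), to 173% and 147% of WT. YKE2 had 8.43 and 8.63 (WT), 9.21 and 9.10 (FHL1 deletion) and 8.72 and 8.96 (double deletion). It rose by 0.62 in the FHL1 deletion (SE 0.15, adjusted p 0.031), and its double deletion difference of 0.31 did not pass (SE 0.15, adjusted p 0.21).

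The other 3 listed prefoldin genes did not pass. PAC10 differed by 0.47 and 0.38, with WT arrays 0.46 apart, GIM3 by 0.22 and 0.16, and GIM4 by 0.38 and -0.04. PFD1, a prefoldin subunit gene outside the list, differed by 0.24 (SE 0.35, adjusted p 0.66) and -0.05 (SE 0.35, adjusted p 0.93), with arrays that overlap WT in both strains. The prefoldin median was 0.48 within set A and 0.53 within set B in the FHL1 deletion. The GIM5 call there was lost without WT experiment 1 (adjusted p 0.076) or FHL1 deletion experiment 2 (0.062), and the YKE2 call was lost without any of the WT or FHL1 deletion arrays (0.070 to 0.14). The GIM5 call in the double deletion was lost without any WT or double deletion array (0.093 to 0.19).

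**Figure D3:**
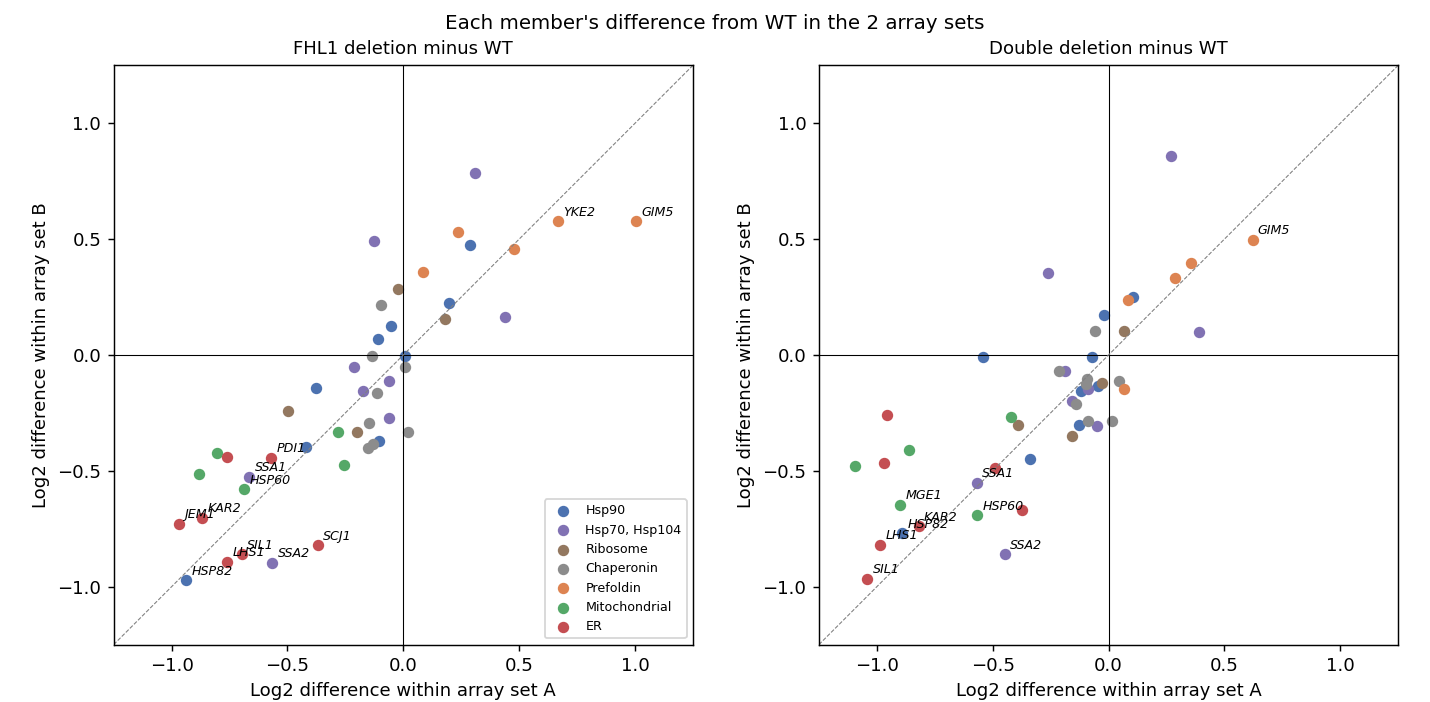
Log2 difference of each tested chaperone gene from WT within array set A (x axis) and within array set B (y axis), coloured by role, with called genes named. All called genes have the same sign in both sets, and the ER and mitochondrial genes lie in the lower left of both plots.

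The double deletion and the FHL1 deletion were then compared with each other, which asks what the loss of IFH1 adds. None of the 47 chaperone genes was called by limma, and 1 had an unadjusted p under 0.05, against 213 of all 4242 genes. Across all 4242 genes 0.0236% were called lower, which is IFH1 itself, and 0% higher. The gene with the small unadjusted p was GIM4, with 8.10 and 8.14 (WT), 8.68 and 8.34 (FHL1 deletion) and 8.16 and 7.998 (double deletion) and a difference of -0.42 (SE 0.16, adjusted p 0.95). Both double deletion arrays lay under both FHL1 deletion arrays for 9 chaperone genes and above them for 0, where all genes gave 19% and 12.5%. These 9 were CNS1, AHA1, HSP104, EGD1, GIM4, GIM5, YKE2, MGE1 and SIL1.

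The prefoldin genes were all lower in the double deletion than in the FHL1 deletion, with a median of -0.23, and the ER genes had a median of 0.005. Intervals of 95% for the difference between the mutants ran from -0.42 to 0.42 for KAR2, -0.26 to 0.26 for HSP60, -0.20 to 0.46 for HSP82 and -0.15 to 0.22 for SSA1. MGE1, called in the double deletion and not in the FHL1 deletion, differed between them by -0.41 (SE 0.19, adjusted p 0.98), and the 6 ER calls against 3 were likewise not shown to differ by any test. For CDC37, ZUO1, TCP1, CCT2, CCT4 and CCT6 the deposited values of FHL1 deletion experiment 2 and double deletion experiment 1 were exactly equal. The origin of the equal values was not tested, and these arrays may not be independent, for those genes or for others.

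A further 43 folding genes outside the list gave 31 tested genes, of which 5 were called higher and 2 lower in the FHL1 deletion, against 3 and 1 in the double deletion, where all genes gave 12.9% higher and 8.42% lower, and 9.78% and 8.46%, with medians of 0.17 and -0.03. TAH1, an Hsp90 cofactor for the assembly of protein complexes with RNA, had 9.02 and 9.10 (WT), 10.19 and 10.15 (FHL1 deletion) and 9.70 and 9.81 (double deletion). It rose by 1.10 (SE 0.13, adjusted p 0.0035) and by 0.69 (SE 0.13, adjusted p 0.017). The small heat shock protein gene HSP42 rose by 0.95 (SE 0.20, adjusted p 0.018) and by 0.75 (SE 0.20, adjusted p 0.041), and JJJ3, which encodes a J-domain protein of diphthamide synthesis, rose by 0.92 (SE 0.18, adjusted p 0.015) and by 0.83 (SE 0.18, adjusted p 0.024). SNL1, a cofactor of cytosolic Hsp70, and MPD2, a relative of PDI1, rose in the FHL1 deletion by 0.69 (SE 0.16, adjusted p 0.026) and 0.68 (SE 0.14, adjusted p 0.020). MPD1, another ER relative of PDI1, fell by 0.68 (SE 0.19, adjusted p 0.044) and by 0.69 (SE 0.19, adjusted p 0.0455), and TIM44, which anchors Ssc1 at the import channel, fell by 0.62 in the FHL1 deletion (SE 0.15, adjusted p 0.028). All of these calls but TAH1 in the FHL1 deletion were lost without at least 1 of the arrays compared. ECM10, a second matrix Hsp70, was too dim to be tested, with 6.29 and 6.23 (WT), 7.58 and 7.59 (FHL1 deletion) and 7.46 and 7.39 (double deletion).

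Of the 5 regulators, 4 were tested and none was called. HSF1 had 8.38 and 7.98 (WT), 7.43 and 7.74 (FHL1 deletion) and 7.83 and 7.38 (double deletion), and its differences were -0.59 (SE 0.22, adjusted p 0.10) and -0.57 (SE 0.22, adjusted p 0.12), with all mutant arrays under both WT arrays. With the array set as a block HSF1 was called lower in both, with adjusted p of 0.0054 and 0.0072. HAC1, whose messenger RNA is spliced in the unfolded protein response, differed by -0.09 and 0.32, with MATalpha arrays alone giving a call in the FHL1 deletion (-0.54, adjusted p 0.044). MSN2 and MSN4 differed by 0.16 and 0.10 in the FHL1 deletion and by 0.34 and 0.09 in the double deletion. Both double deletion arrays lay above both WT arrays for MSN2, which was called higher there with the array set as a block (limma adjusted p 0.039). IRE1 was too dim to be tested.

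**Figure D4:**
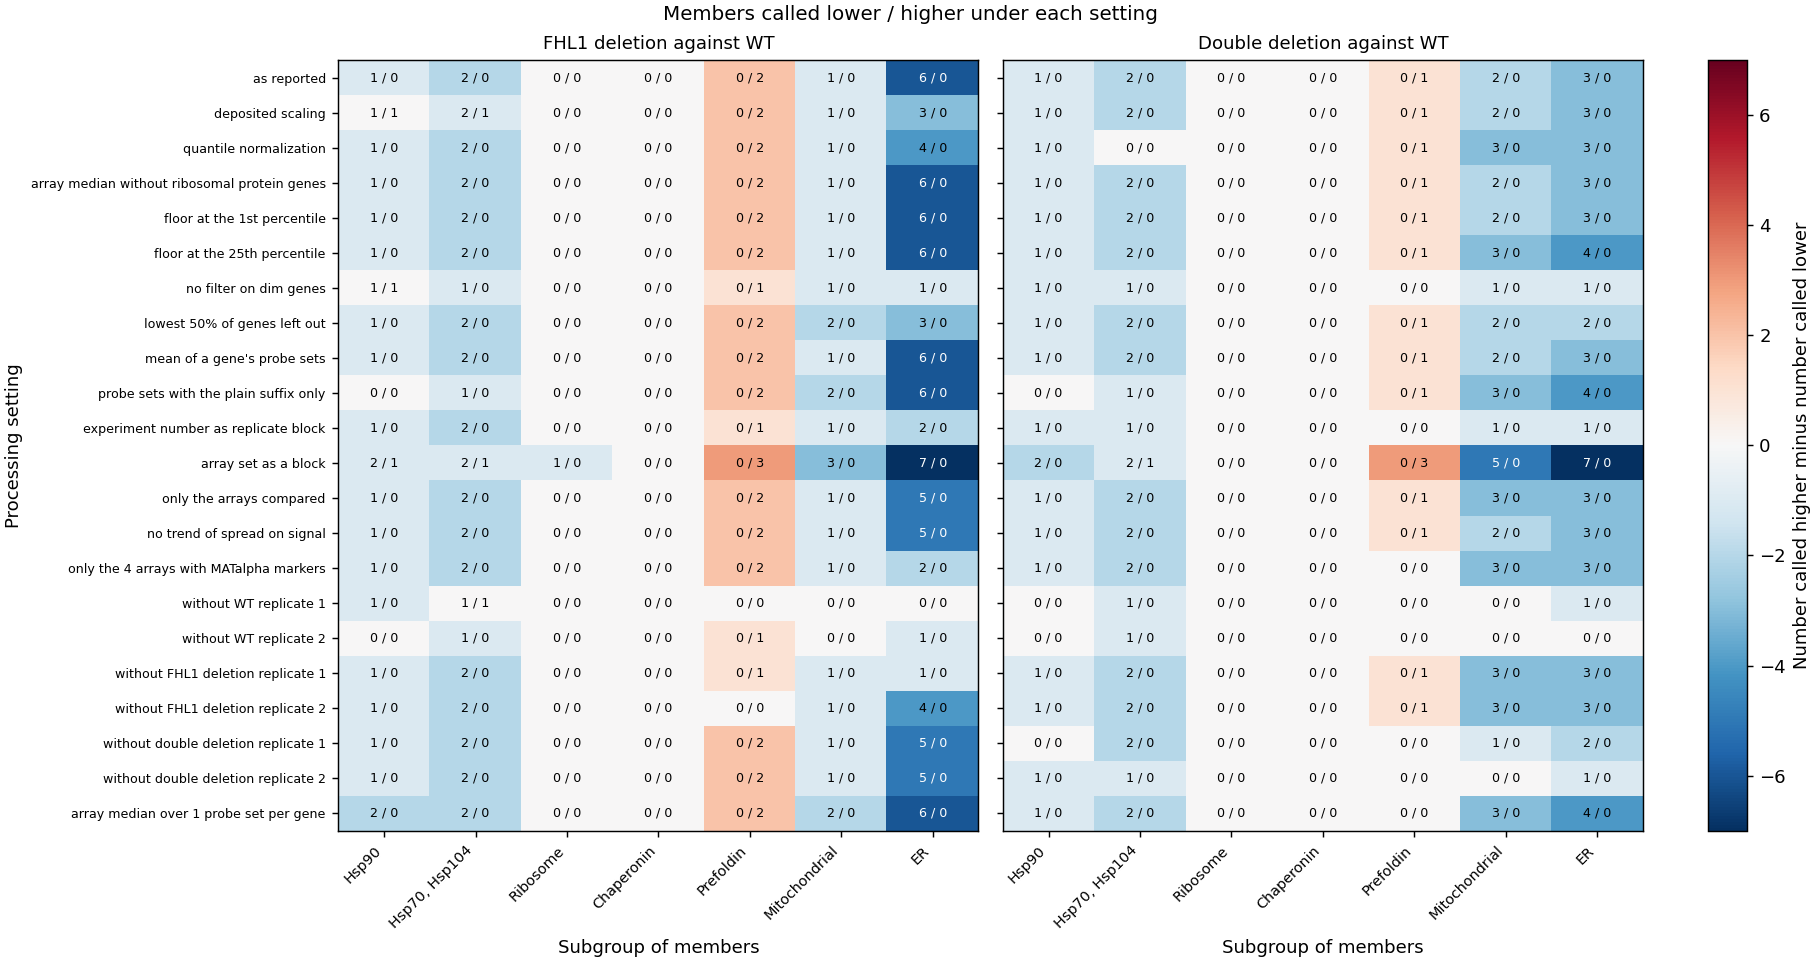
Chaperone genes called lower and higher in each role (columns) under each processing setting (rows), for the FHL1 deletion and the double deletion against WT, with cells coloured by the number higher minus the number lower. ER calls in the FHL1 deletion range from 0 without WT experiment 1 to 7 with the array set as a block, and the chaperonin column is at 0 throughout.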

How the data were processed

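The authors deposited 1 value per array for each probe set, which its range shows to be on a log2 scale; how they summarized and normalized it, and their genome build, is not given in the sources used here. Through the platform annotation 6504 probe sets named 1 gene, 328 several and 2503 none, and symbols were updated through RefSeq's R64 annotation. Each array's median over the 6504 was subtracted and the mean median of 8.27 added back, a floor was set at the 10th percentile (5.63), the brightest probe set per gene was kept, and the lowest 25% of genes by mean were left out, which left 4242.

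Tests used limma 3.58.1 under R 4.3.3 (1 mean per group, all 6 arrays, eBayes with a trend, Benjamini-Hochberg adjustment over all 4242 genes, threshold 0.05). Intervals are 95% intervals without adjustment. The fit was also run on simulated data, drawn independently for each array, which does not check the effect of correlation between arrays. All listed genes are named; full array values are given for those called in a comparison and for the smallest p per role, and other folding genes are named where called. ERO1, SSC1, MDJ1, HSC82, STI1, AHA1, SSE2, SSA3, HSP10, HSP104, ZUO1, SSA4, PFD1, ECM10 and the regulators were given values in addition after these were seen. The members and lists were chosen with earlier results of these data known. Alternatives covered scaling, floor, filter, probe sets, blocks, the arrays entered and each array left out.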

Additional observations from a re-analysis of the deposited data

How the results depend on the processing

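In the order FHL1 deletion lower, FHL1 deletion higher, double deletion lower, double deletion higher, the reported counts of chaperone genes were 10, 2, 8 and 1. With the experiment number as a replicate block they were 6, 1, 4 and 0, against 209, 296, 151 and 164 over all genes. With arrays matched by experiment number, their deviations from group means over genes had a correlation of -0.37 for the FHL1 deletion and WT. It was 0.41 for the double deletion and WT, and -0.64 for the 2 mutants. Matched by array set, the correlations were 0.37, 0.41 and 0.64. Both matchings are the same for the double deletion and WT. For the other comparisons they are crossed, so with 2 arrays per group only the sign differs. These correlations do not settle which arrays belong together. With the array set as a block the counts were 15, 5, 16 and 4. Without the filter on dim genes they were 4, 2, 4 and 0, against 319, 423, 221 and 240 over all 5656 genes. On the deposited scaling they were 7, 4, 8 and 1, against 267, 769, 269 and 521 over all genes. The MATalpha arrays leave 1 array of each mutant, so their counts are not listed here. An array median over 1 probe set per gene, chosen after seeing the data, gave 12, 2, 10 and 0. Over all genes it gave 431, 460, 397 and 373. Leaving out each array in turn gave ranges of 2 to 9, 0 to 2, 1 to 9 and 0 to 1. The causes were not tested. The counts stayed within 1.5 times of the reported ones under quantile normalization, a median without ribosomal protein genes, the other floors, a filter at 50%, averaged probe sets, the plain suffix only, only the arrays compared, and no trend. No chaperone gene was called between the mutants under any alternative. PPT1 in the double deletion against WT turned from 0.14 to -0.62 (limma adjusted p 0.045) with plain-suffix probe sets only, where another probe set is read. Over all genes the calls in the FHL1 deletion went from 357 lower and 546 higher to 101 and 118 without WT experiment 2 and to 760 and 1007 with the array set as a block, and in the double deletion from 359 and 415 to 64 and 69, and to 762 and 815. Of the other values, 5289 counted as unchanged, 147 lost and 57 gained a call, and 110 medians moved by more than the spread between the array sets. Unchanged means the same side of the threshold for a gene, and a smaller move for a median. Genes that were not called could change sign and still count as unchanged. The values pool all comparisons, also that between the mutants, where no chaperone gene was called. The unchanged total therefore does not measure how stable the calls are.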
